A study of Oryza sativa with 4 samples.

Results

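Ribosomal protein genes were followed in rice leaf by their names. A gene was taken when its symbol or a synonym in the RefSeq rice gene table, with a leading Os removed, read RPL or RPS followed by a number and at most 1 letter. There were 65 such genes, and 21 of them had a probe set assigned to that gene alone among the 17905 genes with such a probe set. The other 44 were not measured here. They are 26 entries on the plastid genome, 13 on the mitochondrial genome, of which 3 are pseudogenes, and 5 nuclear genes. All measured members are therefore nuclear genes, and no ribosomal protein gene of the plastid or mitochondrial genome could be followed. Where a gene had several probe sets, the one with the highest mean signal over the 4 arrays stands for it.

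Ribosomes build proteins from messenger RNA and consist of ribosomal RNA and many small basic proteins, named RPL in the large subunit and RPS in the small one. A leaf cell holds 3 kinds: those of the cytosol, those of the chloroplast, which make photosynthesis proteins and resemble bacterial ribosomes, and those of the mitochondria. Most chloroplast and mitochondrial ribosomal proteins are encoded in the nucleus, made in the cytosol and imported. Genes of cytosolic ribosomal proteins are typically transcribed together, at high levels in growing and dividing tissue, and most exist in several nearly identical copies.

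The series holds 4 single-colour arrays of leaf RNA from rice (Oryza sativa, cultivar Nipponbare), 2 from plants that carry the empty vector pActnos/Hmz and 2 from plants that carry pActnos/Hmz-OsRR6, sampled 75 days after germination. Both groups are T0 plants, that is primary transformants raised from callus and selected on hygromycin B, and were grown in water culture to heading with days of 12 h (30 °C by day, 25 °C at night). OsRR6 is a type-A response regulator, one of the proteins that dampen the response to the hormone cytokinin, and the comparison asks how leaf transcripts differ when it is expressed from a transgene. The labels do not say which promoter drives it, whether the arrays of a group came from separate plants or transformation events, or whether plants were pooled, so the spread behind the p-values is that between these arrays and may be technical only.

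Signals are linear array intensities as the authors deposited them, with a trimmed mean of 500.1 on every array, and log2 changes are overexpressor minus control of log2(signal + 3.6). They were tested with limma over 28629 probe sets with Benjamini-Hochberg adjustment, and a gene is called higher or lower at an adjusted p under 0.05. The OsRR6 probe set, the check of the label, read 2559 and 2733 on the control arrays against 2264 and 1989 (-0.32, adjusted p = 0.0597), so it was not raised on the arrays labelled overexpressor. Which stretch of the transcript it covers is unknown here, and "overexpressor" below means the arrays with that label. Leaf marker genes gave summed signals of 135181 and 143350 on the control arrays against 109257 and 101569, with 5 lower and 4 not past of 9 tested, and RBCS1 at background on all 4 arrays. Anther and tapetum genes summed to 15476 and 16123 against 2027 and 1673, with 6 lower and 2 not past of 8 tested. The 4 vascular genes summed to 11910 and 11931 against 9049 and 8075, and all 4 were lower. Genes of dividing cells summed to 33424 and 35160 against 47356 and 54239, with 18 higher, 1 lower (kn1) and 7 not past of 26 tested. For all these counts of markers, the share over all tested probe sets was 15.4% higher and 13.1% lower. In a bulk sample fewer cells of a type and less RNA per cell cannot be told apart, and the part of these shifts in the values below was not tested.

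The table does not state the compartment in which a protein works, so the members were sorted by their synonyms. RPL18 and RPL27 carry the synonyms CL18 and CL27, the form of name that the table also gives to the chloroplast ribosomal protein L12 gene al1 (CL12). They are called chloroplast type here. The gene rps14 on chromosome 8 also bears the names SDH2-1 and sdhB: in rice the mitochondrial S14 protein is made from the gene of the iron-sulphur subunit of succinate dehydrogenase by alternative splicing. A nuclear gene listed only as rpl5, on chromosome 3, is distinct from the RPL5A and RPL5B genes on chromosome 1. It is shown on its own, with its compartment not given. No compartment is given for the other 17 measured genes either. They were taken as cytosolic type by default, 9 of the large and 8 of the small subunit. This sorting was made after the values had been seen.

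Every measured cytosolic-type gene gave a higher deposited signal on both overexpressor arrays than on both control arrays, although the change of RPS3A turned to -0.027 after median centring. Of the 17 genes 9 were higher past the test, 0 were lower and 8 did not pass. The median log2 change was 0.25, or 1.19-fold, within a range of 0.075 to 0.42. Over all tested probe sets 15.4% were called higher and 13.1% lower, 39.7% were higher and 28.3% lower in all 4 pairs of arrays, and the median change was 0.084. These genes are among the brightest on the array, and the dimmest of them lay at percentile 94.7 of mean signal. Of the 1514 tested probe sets at least as bright as that gene, 18.1% were called higher, 27.5% lower, 34.6% were higher in all 4 pairs and 44.1% lower in all 4, with a median change of -0.05 (a background chosen after the values were seen). The summed signal of the 17 genes was 148051 and 152710 in the controls against 174285 and 181875 in the overexpressors, a ratio of means of 1.18. At an unadjusted p of 0.05 in limma 12 of the 17 were higher and no member was lower, against 23.6% higher and 17.8% lower over all tested probe sets.

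**Figure D1:**
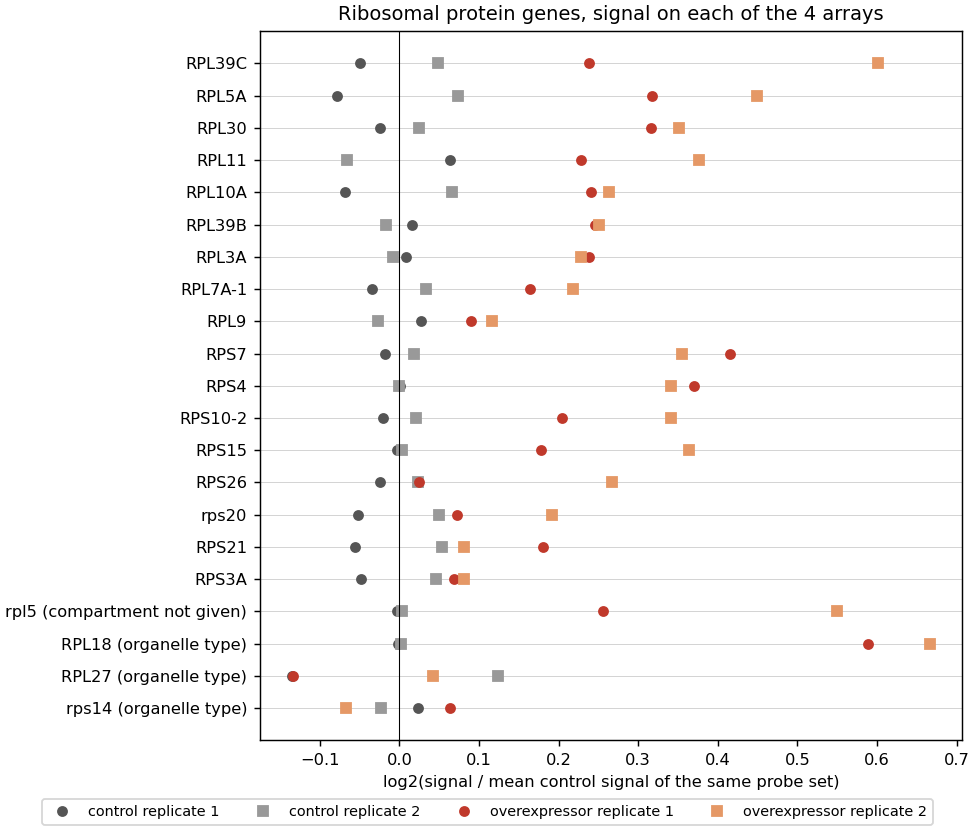
Signal of the 21 measured ribosomal protein genes on each of the 4 arrays, as log2 of the signal over the mean control signal of the same probe set (x axis), 1 gene per line, with control arrays in grey and overexpressor arrays in red and orange. For all 17 cytosolic-type genes both overexpressor points lie to the right of both control points in the deposited signals, whereas the points of RPL27 and rps14 overlap.

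The large subunit of the cytosolic ribosome had 6 higher genes of 9, with a median change of 0.25, and 3 that did not pass. Over all tested probe sets 15.4% were called higher, and 18.1% of the 1514 bright ones. The subunits were not tested against each other. RPL30, whose protein binds a kinked RNA fold, read 8837 and 9143 in the controls against 11191 and 11472 in the overexpressors, which is a change of 0.33 (95% interval 0.16 to 0.50, SE 0.071, adjusted p = 0.0165). The arrays of a group lay close together and the groups were well apart. RPL5A and RPL11 encode the proteins that carry 5S ribosomal RNA into the large subunit, and both were called. RPL5A read 7400 and 8224 against 9734 and 10661 (0.38, SE 0.089, adjusted p = 0.0221). RPL11 read 7443 and 6805 against 8341 and 9249 (0.30, SE 0.089, adjusted p = 0.0468). Neither gene had overlapping groups.

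RPL39, one of the smallest ribosomal proteins, lines the tunnel through which the new protein chain leaves. RPL39C read 7770 and 8319 against 9486 and 12207 (0.42, SE 0.13, adjusted p = 0.0496), and its change was the widest of the cytosolic type. It differed between the overexpressor arrays by 0.36 on the log2 scale, and the change was 0.60 without overexpressor replicate 1 and 0.24 without replicate 2, with the call kept in both cases. The call was lost without control replicate 1 (adjusted p = 0.214), without control replicate 2 (0.122), after quantile normalization (0.054) and median centring (0.117), without a filter (0.111) and without a trend (0.15). RPL39B read 11645 and 11387 against 13652 and 13701 (0.25, SE 0.068, adjusted p = 0.0379), with arrays of a group nearly alike. RPL3A, whose protein reaches close to the site where peptide bonds form, read 7790 and 7705 against 9136 and 9075 (0.23, SE 0.070), and its adjusted p of 0.04999976 lay at the threshold. Each of these 3 genes had all overexpressor values above all control values.

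Another 3 large-subunit genes did not pass. RPL10A, whose protein forms the mobile L1 stalk, read 9693 and 10637 against 12006 and 12201 (0.25, adjusted p = 0.0539). RPL7A-1 read 9932 and 10405 against 11392 and 11829 (0.19, adjusted p = 0.095). RPL9 read 10667 and 10275 against 11145 and 11346 (0.10, 95% interval -0.066 to 0.27, adjusted p = 0.315). In each the groups did not overlap.

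In the small subunit 3 of 8 genes were higher and 5 did not pass, with a median change of 0.21. The shares called higher were 15.4% of all tested probe sets and 18.1% of the 1514 bright ones. RPS7 read 6896 and 7073 in the controls against 9318 and 8933 in the overexpressors (0.39, SE 0.073, 95% interval 0.21 to 0.56, adjusted p = 0.0113). RPS4 read 8275 and 8273 against 10693 and 10478 (0.36, SE 0.070, 95% interval 0.19 to 0.52, adjusted p = 0.0127). These had the smallest p-values of the cytosolic type, and in both the replicates differed far less than the groups. RPS10-2, whose protein sits near the entry of the messenger RNA channel, read 8097 and 8335 against 9462 and 10408 (0.27, SE 0.080, adjusted p = 0.0468).

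The 5 other small-subunit genes did not pass, though none had overlapping groups. RPS15, of the head of the subunit, read 6811 and 6844 against 7720 and 8787 (0.27, adjusted p = 0.0623). RPS26, which lies at the exit of the messenger RNA channel, read 5681 and 5873 against 5874 and 6950 (0.15, adjusted p = 0.318). Its first overexpressor value exceeded the higher control value by little. The signals of rps20, also of the head, were 5119 and 5490 against 5578 and 6059 (0.13, adjusted p = 0.284), and those of RPS21 were 14612 and 15768 against 17218 and 16072 (0.13, adjusted p = 0.251). RPS3A, also listed as CYC07, the name of its counterpart in periwinkle, where it was found in dividing cells, read 11384 and 12156 against 12340 and 12447 (0.075, 95% interval -0.10 to 0.25, adjusted p = 0.478), the smallest change of the 17.

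**Figure D2:**
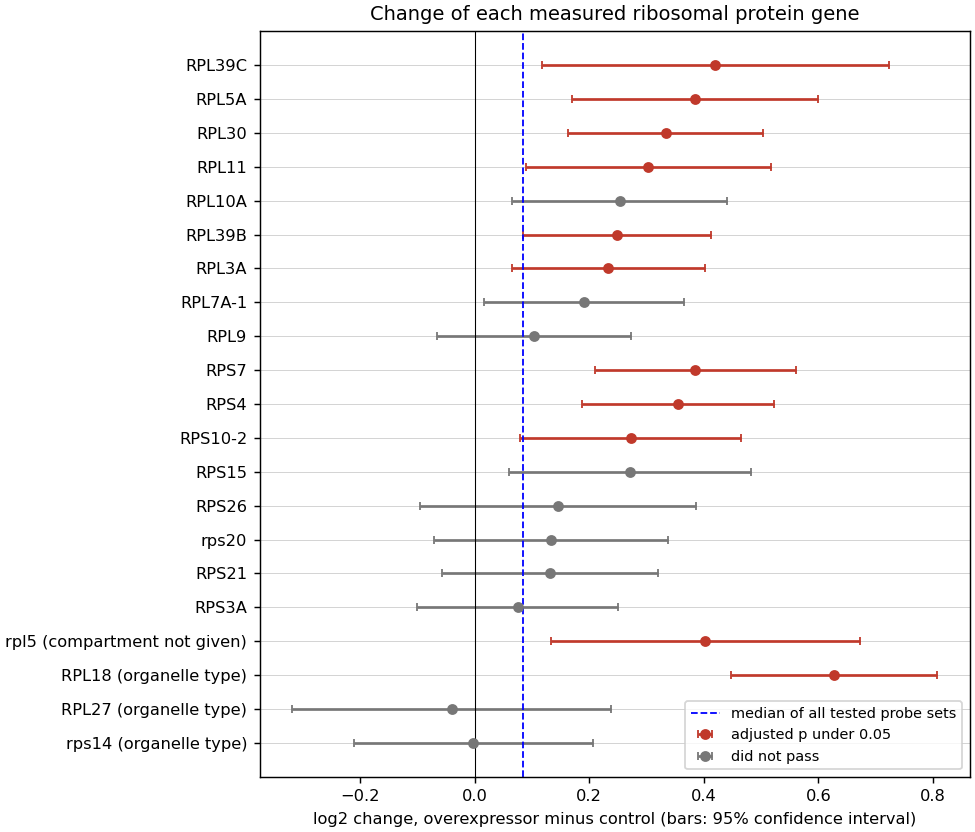
Log2 change of each measured ribosomal protein gene, overexpressor minus control, with 95% confidence intervals from limma; red points passed an adjusted p of 0.05 and grey points did not, and the dashed line is the median of all tested probe sets (0.084). The 17 cytosolic-type genes lie between 0.075 and 0.42, 12 of them with an interval above 0, and RPL18 lies at 0.63.

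When a control array was left out, the spread came from the overexpressor pair alone. That pair differed by a median of 0.203 in absolute log2 signal, against 0.115 for the control pair. The part of this in the number of calls was not tested. The number of calls changed with the arrays used. Without control replicate 1 or without control replicate 2 it fell from 9 to 0 of 17 in limma, with 4 and 6 genes higher at an unadjusted p of 0.05 (14.6% and 15% of all tested probe sets), while the median change was 0.25 and 0.24 and all 17 changes were positive. Over all tested probe sets 4.93% and 5.31% were then called higher. Without a trend of the spread with signal 0 of the 17 were called, with 4 at an unadjusted p of 0.05, against 9.01% and 22% of all tested probe sets. With the replicate number as a block 5 were called, against 14.8%. After median centring 3 genes were called, against 10.6% of all tested probe sets. After scaling to the hybridisation spikes 17 were called, against 40.4%. The median changes were 0.15 and 0.57.

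Of the 2 chloroplast-type genes measured RPL18 was higher and RPL27 did not pass. RPL18, whose bacterial counterpart binds 5S ribosomal RNA, had the widest change of all measured members. Its probe set read 5168 and 5182 in the controls against 7781 and 8217 in the overexpressors (5175 ± 9.62 against 7999 ± 308, mean ± SD, n = 2), which is 1.54-fold, or 0.63 on the log2 scale (95% interval 0.45 to 0.81, SE 0.075, adjusted p = 0.00242). It passed under each of the 15 alternative settings, with adjusted p between 0.000212 and 0.0345. RPL27, whose bacterial counterpart lies beside the site of peptide bond formation, read 3664 and 4385 against 3668 and 4143 (-0.040, 95% interval -0.32 to 0.24, adjusted p = 0.825). Its groups overlapped, and the interval leaves room for a change of either sign. The sign was positive after quantile normalization (0.019), after spike scaling (0.27), without control replicate 2 (0.089) and without overexpressor replicate 1 (0.048).

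The gene rpl5 on chromosome 3 was higher. It read 3296 and 3310 in the controls against 3945 and 4834 in the overexpressors (0.40, SE 0.11, 95% interval 0.13 to 0.67, adjusted p = 0.0393). The overexpressor arrays differed by 0.29 on the log2 scale, against hardly any difference between the control arrays. The call was lost without either control array (adjusted p = 0.184 and 0.173), after median centring (0.109), without a filter on dim probe sets (0.0809) and without a trend (0.127). A related gene outside the naming rule, ASL1, which encodes chloroplast ribosomal protein S20, read 4063 and 4175 against 4461 and 4835 (0.17, adjusted p = 0.165, and 0.0294 without overexpressor replicate 1).

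The brightest probe set of rps14, the mitochondrial-type gene, did not differ past the test. It read 3607 and 3492 in the controls against 3708 and 3387 in the overexpressors (-0.0021, 95% interval -0.21 to 0.21, adjusted p = 0.989), and the groups overlapped. After spike scaling it was 0.31 (adjusted p = 0.0407). Of the 3 organelle-type genes measured 1 passed as higher and none as lower, against 15.4% and 13.1% of all tested probe sets. At an unadjusted p of 0.05 in limma 1 was higher and 0 lower.

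**Figure D3:**
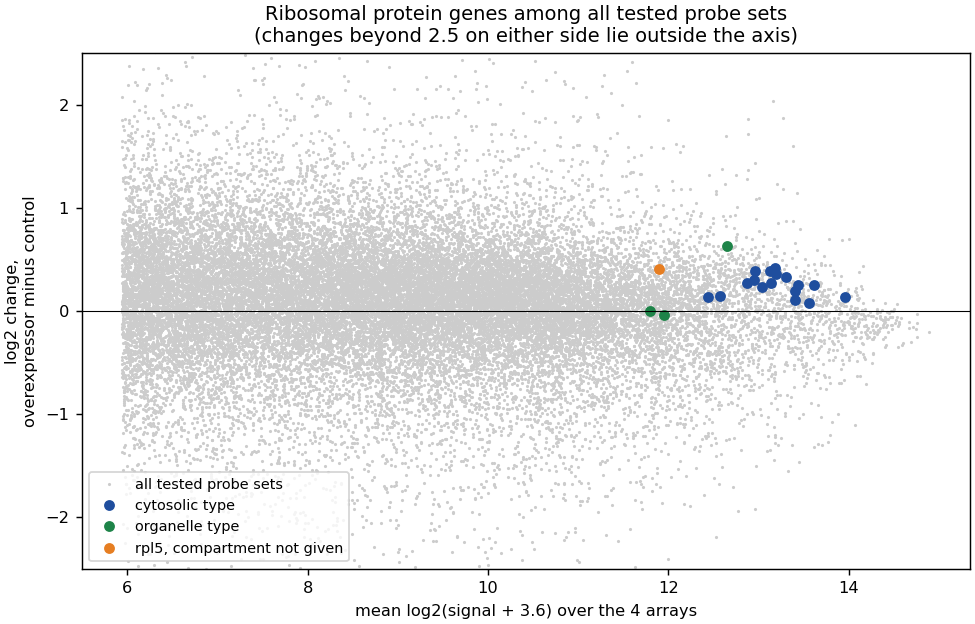
Log2 change, overexpressor minus control, against mean log2(signal + 3.6) over the 4 arrays for the 28629 tested probe sets (grey, without those beyond the axis) and the 21 ribosomal protein genes (coloured by type). The cytosolic-type genes sit among the brightest probe sets and above 0 (RPS3A was at -0.027 after median centring), in a region where the median change was -0.05.

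Of the 21 genes 8 have several probe sets that passed the filter on dim signals, which allows a check within the gene. Of the 37 probe sets of the members 34 were tested, 13 of them higher, 1 lower and 20 not past. Over all tested probe sets 15.4% were higher and 13.1% lower. Several probe sets read the same gene, so these are not counts of separate genes. All tested probe sets of RPS4, RPL39B, RPL10A, RPS21 and RPS3A had positive changes, those of rps14 negative ones, and those of rps20 and RPL27 both signs. For RPS4 the second probe set read 6688 and 7021 against 8828 and 9495 (0.42, adjusted p = 0.0111), so both of its probe sets passed. For RPS21 a second probe set read 5436 and 6265 against 7625 and 9093 (0.51, adjusted p = 0.0201), beside the 0.13 of the brighter one. The difference between these probe sets was not tested, and their 95% intervals overlap (-0.056 to 0.32 and 0.23 to 0.79). These second probe sets of RPS4 and RPS21 have names ending in _x_at, so they can pair with transcripts of other genes as well.

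Some further probe sets of organelle-type genes had negative changes. One probe set of RPL27 read 389.1 and 330.5 in the controls against 204.2 and 250.4 in the overexpressors (-0.66, SE 0.19, 95% interval -1.11 to -0.20, adjusted p = 0.0448), while the other 2 had overlapping groups. One probe set of rps14 read 882.5 and 961.4 against 710.3 and 755.6 (-0.33, 95% interval -0.61 to -0.051, adjusted p = 0.0776), and the groups did not overlap. The annotation does not say which of the rps14 and SDH2-1 transcripts each one detects. RPS3A had 3 further probe sets at 0.21, 0.26 and 0.18 and rps20 2 at 0.12 and -0.031, none past the test.

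**Figure D4:**
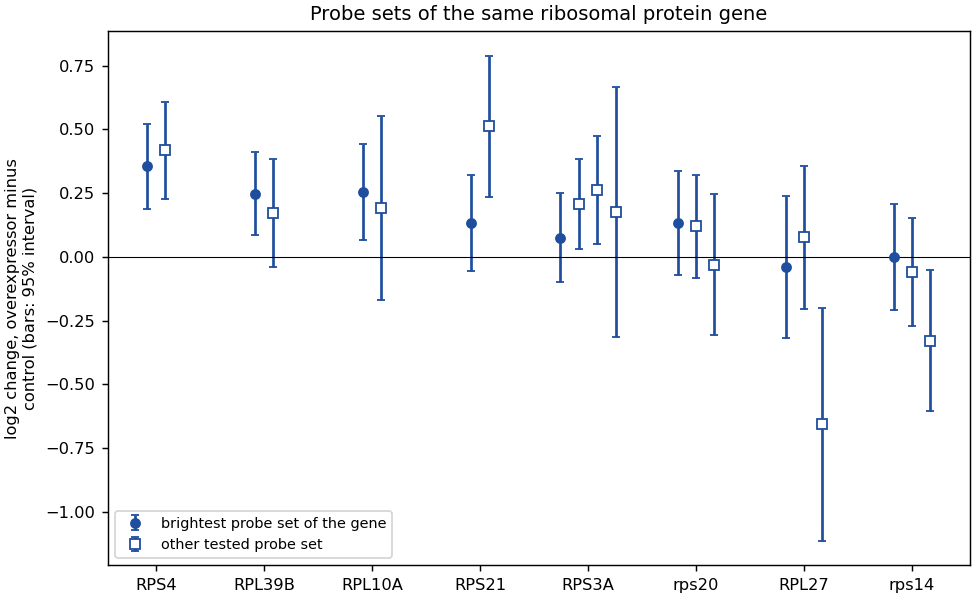
Log2 change, overexpressor minus control, with 95% confidence intervals for each tested probe set of the 8 genes that have several; filled circles are the brightest probe set of a gene and open squares the others. Changes of the 2 RPS21 probe sets lie at 0.13 and 0.51, and the dimmest tested probe set of RPL27 lies at -0.66.

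Copies of the same protein are a limit of these values. Of the 17 cytosolic-type genes 6 are represented by a probe set whose name ends in _s_at or _x_at, which marks probes that can pair with transcripts of more than 1 gene, so near-identical copies may share a signal. With those probe sets left out 15 genes could be tested, of which 7 were higher, 0 lower and all 15 positive (median 0.26), against 15.8% called higher over all probe sets kept. Close copies outside the naming rule gave further values. RPL7A-2 read 7709 and 7693 against 8657 and 9484 (0.23, adjusted p = 0.069, and 0.00789 without overexpressor replicate 1), near the 0.19 of RPL7A-1. RPS10-1 read 1552 and 1576 against 1454 and 1417 (-0.12, adjusted p = 0.355), lower in all 4 pairs as deposited where RPS10-2 was higher, but 0.19 after spike scaling, and the difference between the copies was not tested. RPS27AA and RPS27AB, which encode ubiquitin fused to a small-subunit protein, had changes of 0.047 and 0.12 (adjusted p = 0.654 and 0.273), the former -0.055 after median centring.

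Most members were brighter on replicate 2 in both groups. Of the 21 genes 16 were brighter on overexpressor replicate 2 than on replicate 1, and 15 were brighter on control replicate 2 than on replicate 1. Over all tested probe sets 53% (overexpressor) and 50.7% (control) were brighter on replicate 2. Of the 1514 bright ones 33.6% and 68% were, so the control count of the members lay near the share of bright probe sets. The genes share 4 arrays and are not replicates of the condition. The summed signal of dividing-cell genes was also higher on overexpressor replicate 2 (54239 against 47356), with 26 of its 27 genes brighter there, and the part of this in the ribosomal values was not tested.

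Of the genes that put ribosomes together, 2 of 4 were higher, 0 lower and 2 did not pass, against 15.4% higher and 13.1% lower over all tested probe sets. PES, the plant form of Pescadillo, a nucleolar factor of large-subunit assembly, read 3073 and 3100 in the controls against 4894 and 4691 in the overexpressors (0.63, SE 0.078, adjusted p = 0.00273). NUG2, a nucleolar GTPase of the same pathway, read 6851 and 6638 against 9870 and 9360 (0.51, SE 0.074, adjusted p = 0.00472). In both the groups lay far apart, and without control replicate 2 only PES passed of the 4 (adjusted p = 0.055 for NUG2). BOP1, a partner of Pescadillo, read 1741 and 1694 against 1634 and 2028 (0.084, adjusted p = 0.65), and RRP46, a part of the RNA exosome that trims ribosomal RNA, 476.9 and 502.8 against 475.9 and 594.2 (0.12, adjusted p = 0.609), with overlapping groups for both. Without overexpressor replicate 2 both turned negative (-0.072 and -0.041), and without replicate 1 BOP1 was 0.24 (adjusted p = 0.044).

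The translation factor genes were taken by symbol or synonym. Of the 9 measured 0 were higher and 0 lower in limma, against 15.4% and 13.1% of all tested probe sets. At an unadjusted p of 0.05 in limma 2 were higher and 0 lower (23.6% and 17.8% of all tested probe sets). The 2 were PAB1 and eIF-4A-III. Their median change was 0.12. The gene of elongation factor EF-1-alpha, which brings aminoacyl-tRNA to the ribosome, read 19776 and 21045 against 20697 and 19696 (-0.015, adjusted p = 0.898). The gene of the RNA helicase eIF-4A-1, which unwinds messenger RNA for initiation, read 12768 and 12452 against 13904 and 13443 (0.12, adjusted p = 0.253). In 7 of the 9 all 4 pairs were higher, as they were in 39.7% of all tested probe sets. The widest change was that of eIF-4G at 0.28 (adjusted p = 0.175), which was -0.25 with its dimmest tested probe set. After spike scaling 8 of the 9 passed as higher, where 40.4% of all tested probe sets did and their median change was 0.40. After quantile normalization 2 passed, against 14%, and without overexpressor replicate 1 also 2, against 21.5%. RACK1A and RACK1B, which encode a scaffold protein on the small subunit, had changes of 0.060 and 0.019 (adjusted p = 0.597 and 0.877), with signs that turned after median centring (-0.041 and -0.082).

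The array also has probe sets for ribosomal RNA, which were left out of the tests as controls. Of these 5 probe sets 3 were lower in all 4 pairs and 2 had overlapping groups, where 28.3% of all tested probe sets were lower in all 4 pairs. One for 18S RNA read 155.1 and 78.3 against 60.1 and 29.8, the last under the background level of that array (39.2). The one for 25S RNA read 202.6 and 199.4 against 175.5 and 198.7, without overlap but apart by little. The other for 18S RNA read 624.3 and 287.6 against 405.9 and 302.8, and the control arrays lay on either side of the overexpressor arrays. For both 18S probe sets the control arrays differed widely from each other. No change in the amount of ribosomal RNA is read from these values.

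**Figure D5:**
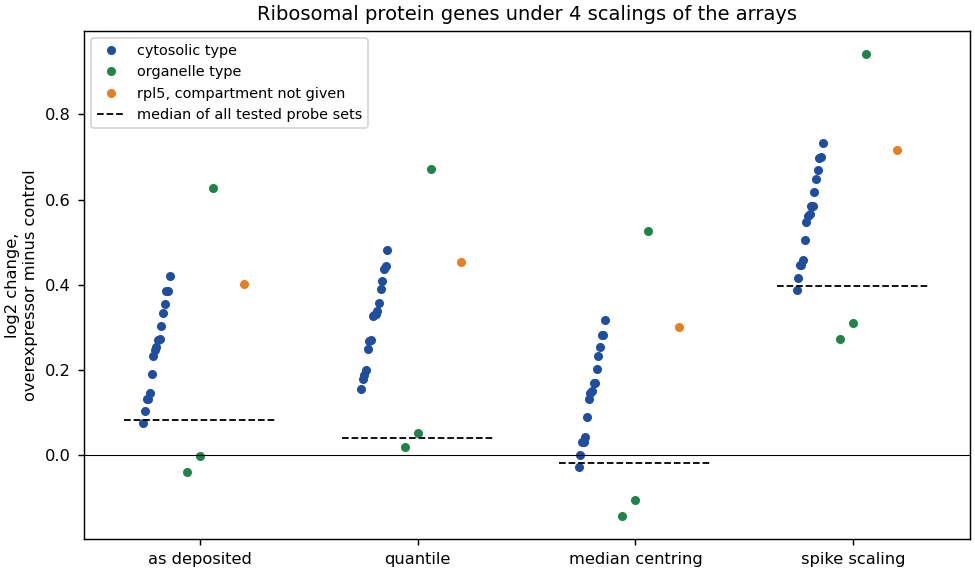
Log2 change, overexpressor minus control, of the 21 ribosomal protein genes (points, by type, spread sideways for visibility) with the arrays as deposited and under 3 other scalings; dashed lines are the median of all tested probe sets under each. The median of the 17 cytosolic-type genes was 0.25, 0.33, 0.15 and 0.57 from left to right, and that of all probe sets 0.084, 0.040, -0.018 and 0.40.

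The size of the change depended on the scaling. Spike scaling moved the median of all tested probe sets from 0.084 to 0.40 and median centring moved it to -0.018. Both move all probe sets alike, so the cytosolic-type median stayed 0.17 above that of all probe sets by construction. Quantile normalization, which does not, moved this distance from 0.17 to 0.29. After median centring 16 of the 17 changes were positive, with RPS3A at -0.027 and RPL9 at 0.0013.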

How the data were processed

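Biotin-labelled RNA (about 10 µg of total RNA, per the labels' protocols) from 4 leaf samples was hybridised to 1 array each, and groups and replicate numbers come from the sample titles. The authors deposited an intensity per probe set on a linear scale for 57381 probe sets. No source used here names the software. With 2% trimmed from each end, all arrays had a mean of 500.1, so a shift of all transcripts cannot be seen, and values were kept as deposited.

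Of the probe sets 22436 have 1 gene in the platform annotation, 95 have several and 34850 are absent from it. Gene names come from the RefSeq table of assembly ASM3414082v1. No genome or sequence table was used, so no coordinates or sequences are given. The members and lists were chosen with earlier results of these data known, and the sorting into types, the bright background and the relatives (ASL1, RPL7A-2, RPS10-1, RPS27AA, RPS27AB) after values had been seen. TIFY genes, FIB (TAR2) and NOL, which are not genes of translation or ribosome assembly, were left out of those lists by name, and so were false matches among markers.

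Tests used log2(signal + 3.6), where 3.6 is a pseudocount that makes changes of dim transcripts look smaller. The 123 AFFX control probe sets and those whose mean log2 value was under the median were left out, which kept 28629. These were fitted with limma 3.58.1 in R 4.3.3 (lmFit, eBayes with trend), and the two-sided p-values were adjusted over all of them (Benjamini-Hochberg). The procedure was also run on simulated arrays with independent errors drawn from the spread that limma had fitted. Such a run cannot show effects of an array that genes share. Values are given by rule for RPL18, RPS7, RPS4, RPL30, members past the threshold, organelle-type members and, of the others, the 2 brightest and those with the largest and smallest change. The remaining members (RPL10A, RPL7A-1, RPL9, RPS26 and rps20) were added after their values were seen. Of the other lists up to 4 genes past the threshold are named, otherwise the 2 brightest, and BOP1, RRP46 and eIF-4G were added after their values were seen. Alternatives covered scaling, pseudocount, filter, model of the spread, replicate block, left-out arrays and choice of probe set. The background level (95th percentile of 69 control probe sets for absent transcripts) was 30.0 to 43.4. The number of arrays limits the precision. Background correction and slide effects could not be varied because no scanner files were used.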

Additional observations from a re-analysis of the deposited data

How the results depend on the processing

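Of the changes of single genes under the 15 alternatives, 424 kept direction and side of the threshold, 36 gained a call, 54 lost one and 23 changed sign; RPL18 kept its call throughout. The number of higher cytosolic-type genes was 9 as reported, 3 after median centring, 17 after spike scaling, 2 without a filter, 0 without a trend of the spread and 0 to 13 when 1 array was left out (0 without control replicate 1 and 0 without control replicate 2), where the lone array of a group was taken to vary like the other pair. After quantile normalization all of the 17 but RPS26, RPS3A, RPL39C, rps20 and RPL9 were higher, against 14% of all tested probe sets. None of the 17 was lower under any alternative. The replicate number as a block gave 5 higher cytosolic-type genes. Same-numbered arrays had uncorrelated deviations over the probe sets (r = -0.021). With 1 difference between arrays per group, this cannot show whether the numbers pair the samples. The cause of these shifts was not tested.

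After spike scaling 2 organelle-type and 8 translation factor genes were higher, and quantile normalization gave 2 of the latter. With the dimmest tested probe set per gene 1 organelle-type gene, RPL27, was lower. Leaving out 1 array gave 1 higher organelle-type gene each time, 1 to 3 ribosome assembly genes (1 without control replicate 2) and 0 to 2 translation factor genes. Over all probe sets, 4410 were higher and 3760 lower as reported, against 11571 and 2114 after spike scaling, 3030 and 4631 after median centring, 2580 and 2461 without a trend, and 1412 to 6152 and 1607 to 5233 when 1 array was left out (1412 and 1607 without control replicate 1, 1519 and 1721 without control replicate 2).

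Signs turned for 12 of the named genes. RPL27 was 0.019 after quantile normalization, 0.27 after spike scaling, 0.076 without shared probe sets, and -0.17 to 0.089 with 1 array left out (0.089 without control replicate 2 and 0.048 without overexpressor replicate 1). The gene rps14 was 0.051 after quantile normalization, 0.31 after spike scaling and -0.067 to 0.063 with 1 array left out (0.021 without control replicate 1 and 0.063 without overexpressor replicate 2). EF-1-alpha was 0.11, 0.30 and -0.060 to 0.030 in the same order (0.030 without control replicate 2 and 0.021 without overexpressor replicate 2). After median centring RPS3A was -0.027, RACK1A -0.041, RACK1B -0.082, BOP1 -0.018 and RPS27AA -0.055, and RPS10-1 was 0.19 after spike scaling. Without overexpressor replicate 2 BOP1 was -0.072 and RRP46 -0.041 (ranges -0.072 to 0.24 and -0.041 to 0.28 with 1 array left out). With the dimmest tested probe set rps20 was -0.031 and eIF-4G -0.25.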
